A study of Mus musculus with 17 samples.

Results

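The genes described here are 33 genes of DNA repair and of the damage checkpoint, followed in cells washed from the lungs of A/J mice. They were chosen by name, as every gene of a fixed list of excision, mismatch, direct reversal and strand break repair genes and checkpoint kinases, and they were represented by 71 probe sets annotated to exactly 1 of them, out of 45101 on the array. All 33 were among the 13390 genes tested, and 60 of the 71 probe sets passed the filter on low signals, which asked for a signal above the 40th percentile of the array on at least 6 arrays. Bronchoalveolar lavage cells were collected from untreated A/J mice (6 arrays, named control) and from age-matched A/J mice treated with urethane (11 arrays, named urethane). A/J is an inbred strain prone to lung tumours and urethane is a carcinogen that induces them. All mice were A/J from Jackson Labs with no stated transgene, and the labels give neither the age nor the dose of urethane nor the time since treatment. A further label calls all 17 samples, treated ones included, normal lung tissue, while the source is given as lavage cells throughout. Arrays are named by the number in their label, and control 6_13 carries a pair of numbers. The labels do not state whether different numbers are different animals. The p-values therefore speak only to the spread among these samples, and some of that spread may be technical.

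Urethane becomes a DNA-reactive epoxide in the body, and the etheno adducts it leaves on DNA bases are known substrates of base excision repair and of direct reversal. Nucleotide excision repair removes bulky, helix-distorting lesions, mismatch repair corrects replication errors, and broken ends are joined either directly or by recombination with a sister copy. The kinases Atm and Atr sense breaks and stalled replication and activate Chek2 and Chek1, which hold the cell cycle. Resident alveolar macrophages, the main cells of a lavage of a healthy lung, are long-lived and divide slowly, and many repair genes are expressed most strongly in dividing cells.

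Every array had a trimmed mean signal of 500. The 20th percentile of signal was between 9.49 and 66.2 and was highest on urethane 33, 36 and 35. All 11 tested alveolar macrophage markers exceeded the 40th percentile on all 17 arrays. Of these, Car4 was higher, by 0.96 in log2, and Fabp1 lower, at -1.06. Marco, Siglecf and Chil3 differed by -0.00, -0.20 and -0.06, and Krt79 by -0.50. Mrc1, Itgax, Pparg, Cd68 and Csf1r differed by -0.10, 0.09, -0.03, 0.01 and -0.08. The summed signal of the 11 markers ran from 183954 to 222161 in controls and from 140075 to 226149 after urethane. Of T cell markers 3 of 9 were higher (Cd3d, Il7r and Ms4a4b), while Cd3e and Cd3g differed by 0.69 and 0.85, Thy1 by 1.47, Cd28 and Cd5 by 0.14 and 0.02, and Cd2, the marker of highest signal in this list, by -0.78. The summed signal ran from 8934 to 15240 and from 8562 to 12727. Of airway epithelial markers 6 of 13 were lower, among them Scgb1a1 and Scgb3a2 at -1.24 and -1.45 (Scgb3a1 differed by -0.83), and the sum ran from 20045 to 41600 and from 8919 to 13926. Of neutrophil markers 1 of 6 was higher (S100a8, by 1.73), while S100a9 and Cxcr2 differed by 1.58 and 0.50 and Csf3r, Mmp9 and Ltf by -0.28, -0.77 and -0.76, with sums of 3142 to 9520 and 4626 to 54534. Of alveolar type 2 markers 1 of 6 was lower (Napsa, at -0.97), while Sftpc, Sftpb, Sftpa1, Sftpd and Slc34a2 differed by 0.22, -0.05, 0.30, -0.01 and -0.58, with sums of 2947 to 7595 and 1978 to 5063. None of 4 B cell and 3 erythroid markers passed, with sums of 56.1 to 513 and 80.1 to 1067 for B cells and of 256 to 3707 and 18.6 to 5392 for erythroid cells. The part of these cells in the results below was not tested. Arrays were scanned on 2 days, which were also 2 chip lots: 2 control and 5 urethane arrays belong to scan day 1, 4 control and 6 urethane arrays to scan day 2. Over all genes 268 were higher and 153 lower after urethane, and centring each array on its median gave 203 and 45, a lower share of falls (36.3% against 18.1%).

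The comparison of urethane with control asks whether lavage cells of treated mice carry more or less transcript of the repair machinery. Values are log2(signal + 17.1) and differences are urethane minus control, tested with limma over all 13390 genes with Benjamini-Hochberg adjustment at 0.05. Xpc fell, and no other gene of the list passed the test. Of the 33 genes 0 were higher and 1 was lower, which is 3.03% called, against 3.14% of all genes called in either direction (2.00% higher and 1.14% lower). The share called is close to that of all genes. A fit that takes scan day as a block again gave 0 higher and 1 lower, against 7.75% of all genes called (4.31% higher and 3.44% lower). At an unadjusted limma p under 0.05 there were 4 of 33, all lower (Xpc, Atr, Rad50 and Lig1). Over all genes 14.7% had such a p in either direction, 6.95% of all genes lower and 7.71% higher. The median difference of the 33 was -0.11, and that of all genes was -0.03. Of the 33 differences 21 lay below 0 (63.6%), against 54.4% of all genes, and 19 did so with quantile normalization or median centring.

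The precision was enough to bound most of the others. The 95% interval of the difference lay within a 1.5-fold change (0.585 in log2) either way for 22 of the 33 genes, against 48.6% of all genes. Among these 22 were Ddb1, Parp1, Apex1, Msh6, Xrcc5 and Prkdc. Each interval is that of the gene's kept probe set of highest mean and bounds that probe set only. Ercc1, also among the 22, differed by -0.88 (SE 0.26) on another probe set. The 11 whose interval reached past 1.5-fold, so that a change of that size is not bounded, were Xpc, Ercc2, Pms2, Ogg1, Mutyh, Brca2, Rad50, Fancd2, Atr, Chek1 and Mgmt.

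**Figure D1:**
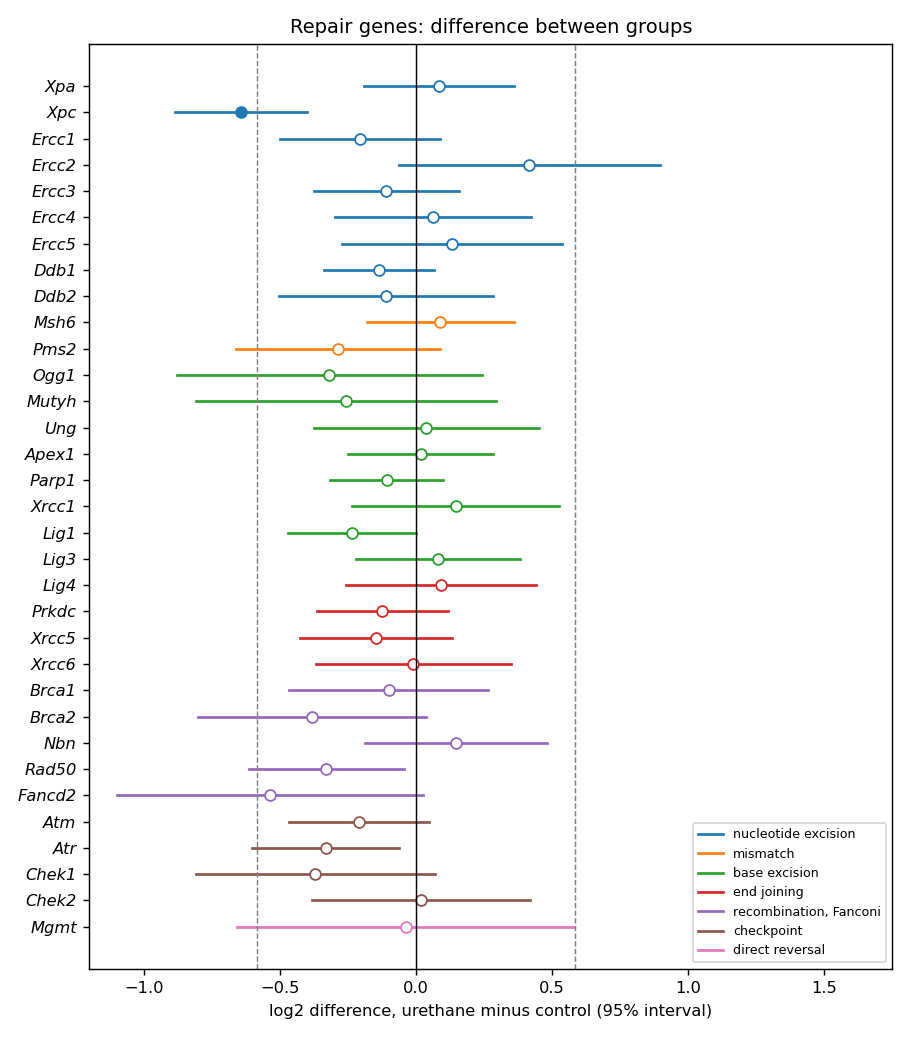
Log2 difference of each of the 33 repair genes (x axis, urethane minus control, with the 95% interval of limma as a line), coloured by pathway; the filled point passed the adjusted threshold and dashed lines mark a 1.5-fold change. Xpc is the filled point, at -0.64, and the other 32 points are open and lie between -0.54 for Fancd2 and 0.42 for Ercc2.

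Xpc encodes the lesion sensor of global genome nucleotide excision repair, which binds the strand opposite a distorted site and recruits the opening complex. It has 1 probe set on the array, which exceeded the 40th percentile on all 17 arrays. In the controls its log2 signal was 9.87 on control 6_13, 9.64 on control 14, 9.63 on control 33, 9.68 on control 35, 9.64 on control 36 and 9.75 on control 37. After urethane it was 9.60, 8.77, 8.87, 9.07 and 9.24 on urethane 3, 5, 7, 8 and 9, and 9.11, 9.15, 9.07, 8.86 and 8.89 on urethane 32, 33, 34, 35 and 36, with urethane 31 between urethane 36 and urethane 34. The groups did not overlap, as was so for 0.471% of all genes: the lowest control was at 9.63 and the highest urethane array, urethane 3, at 9.60, while the other urethane arrays were at most 9.24. Controls averaged 9.70 ± 0.09 (SD, n = 6) and urethane arrays 9.06 ± 0.23 (SD, n = 11), which is a log2 difference of -0.64 (SE 0.12, 95% interval -0.88 to -0.40, limma adjusted p = 0.0029), which is a signal 0.640 times that of the controls. The SD of the urethane arrays was larger than that of the controls, and urethane 3 stood closest to the controls. In these bulk samples fewer cells of a type and less RNA per cell cannot be told apart.

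The fall of Xpc was of the same size on each scan day. It was -0.65 on scan day 1, -0.66 on scan day 2 and -0.65 when the day entered the fit as a block (limma adjusted p = 7.3e-04). The interaction of group and day was -0.01 (limma adjusted p = 0.979). Scan day 1 alone did not pass (limma adjusted p = 0.0701, against 7.27% of all genes called there, 2.35% lower) and scan day 2 alone did (limma adjusted p = 0.0105, against 4.75%, 2.39% lower). The call was also lost when arrays were centred on their medians (-0.59, limma adjusted p = 0.0702, against 1.85% of all genes called). Leaving out any 1 array kept the call.

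The other sensors and scaffolds of nucleotide excision repair did not pass. Ddb1, the adaptor of the ubiquitin ligase that marks ultraviolet lesions, lay between 11.36 and 11.73 (median 11.59) in controls and between 11.02 and 11.65 (median 11.46) after urethane, a difference of -0.14 (SE 0.10). Its lesion-binding partner Ddb2 differed by -0.11 (SE 0.19). Xpa, which checks the opened site, differed by 0.08 (SE 0.13). The ranges of the groups overlapped for each of these genes.

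The helicases and nucleases of the same pathway gave values on either side of 0. Ercc2 and Ercc3 are the helicase subunits of the transcription factor TFIIH. Ercc2 had the largest positive difference of the 33 genes, 0.42 (SE 0.23, limma adjusted p = 0.43): it ran from 7.48 to 8.77 (median 8.16) in controls and from 7.64 to 9.54 (median 8.47) after urethane, with urethane 33 and 36 highest at 9.54 and 9.13. These are also the arrays with the highest 20th percentile signal. Ercc3 differed by -0.11 (SE 0.13). Ercc1 and Ercc4 form the nuclease that cuts on one side of the lesion and differed by -0.20 (SE 0.14) and 0.06 (SE 0.17), and Ercc5, the nuclease of the other side, by 0.13 (SE 0.19). The other kept probe sets of Ercc4 gave -0.40, 0.23 and -0.19, and none passed (limma adjusted p from 0.609 to 0.823 over probe sets).

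Ercc1 depended on the probe set read. The probe set of highest mean gave the value above, whereas another averaged 9.40 ± 0.33 (SD, n = 6) without urethane and 8.52 ± 0.65 (SD, n = 11) with it, which differ by -0.88 (SE 0.26). In the fit of all 29546 kept probe sets it did not pass (limma adjusted p = 0.0911) but it passed once scan day was a block (limma adjusted p = 0.0164, against 4.93% of all probe sets called). The name of that probe set ends in _s_at, the manufacturer's mark for probes shared by several transcripts, so it may not read Ercc1 alone. With the kept probe sets of each gene averaged, Ercc1 differed by -0.54 and passed (limma adjusted p = 0.0341, against 2.61% of all genes called).

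Base excision repair begins with glycosylases that cut out a damaged base. Ogg1, which removes oxidised guanine, ran from 7.66 to 8.15 (median 7.97) in controls and from 6.82 to 8.86 (median 7.61) after urethane, a difference of -0.32 (SE 0.27, limma adjusted p = 0.655). All 5 urethane arrays of scan day 1, at 6.82 to 7.15, lay below both controls of that day, at 7.67 and 7.94, while on scan day 2 the urethane arrays, at 7.61 to 8.86, overlapped the controls, at 7.66 to 8.15. Day by day its differences were -0.83 and 0.14, and their interaction missed the threshold (limma adjusted p = 0.207). A further probe set of Ogg1 gave 0.35 (SE 0.32). Mutyh, which removes adenine opposite oxidised guanine, differed by -0.26 (SE 0.27), and Ung, the uracil glycosylase, by 0.04 (SE 0.20).

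The later steps of base excision varied little between the groups. Apex1, the nuclease that cuts the baseless site, lay between 10.61 and 11.33 in controls and between 10.56 and 11.47 after urethane, a difference of 0.02 (SE 0.13), and its 3 probe sets gave 0.02 to 0.11. Parp1, which senses nicks, lay between 10.73 and 11.10 and between 10.54 and 11.17, a difference of -0.11 (SE 0.10). Xrcc1 and Lig3, the scaffold and the ligase that close the nick, differed by 0.15 (SE 0.18) and 0.08 (SE 0.15). Lig1, the ligase of replication and of long repair patches, ran from 9.37 to 9.75 (median 9.63) in controls and from 9.06 to 9.78 (median 9.40) after urethane. Its difference was -0.24 (SE 0.11, unadjusted p = 0.0485, limma adjusted p = 0.336), with 10 of 11 urethane arrays below the control mean and urethane 31 the exception.

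In mismatch repair and direct reversal 0 of 3 genes passed. Msh6, which recognises mismatched bases as part of a dimer, differed by 0.09 (SE 0.13), and Pms2, a subunit of the nicking complex that follows, by -0.29 (SE 0.18), with -0.74 and -0.50 from its other probe sets (limma adjusted p = 0.238 and 0.587 over probe sets). Mgmt, which lifts alkyl groups off guanine, had the widest spread within groups of the 33 genes (SD 0.62): it ran from 6.80 to 7.86 (median 7.54) in controls and from 6.05 to 8.22 (median 7.63) after urethane, with urethane 36 and 35 lowest at 6.05 and 6.45. Its difference was -0.04 (SE 0.30), 0.43 on scan day 1 and -0.40 on scan day 2.

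End joining genes were close to the controls. Xrcc5 and Xrcc6, the Ku subunits that hold a broken end, differed by -0.15 (SE 0.13) and -0.01 (SE 0.17), Prkdc, the kinase they recruit, by -0.12 (SE 0.12) and Lig4, the ligase of this route, by 0.09 (SE 0.17). All 4 intervals lay within a 1.5-fold change.

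In recombination and crosslink repair 4 of 5 differences were below 0 and none passed. Rad50, the arm of the complex that tethers broken ends, ran from 9.20 to 9.92 (median 9.47) in controls and from 8.67 to 9.53 (median 9.27) after urethane, a difference of -0.33 (SE 0.14, unadjusted p = 0.0255, limma adjusted p = 0.244), with urethane 35 lowest. Nbn, its partner, went the other way by 0.15 (SE 0.16). Brca2, which loads the recombinase, ran from 8.09 to 8.88 (median 8.37) and from 7.53 to 8.86 (median 8.01), a difference of -0.38 (SE 0.20). On scan day 1 alone Brca2 was lower by -0.86 (limma adjusted p = 0.0432, against 7.27% of all genes called), on scan day 2 its difference was -0.06, and the interaction missed the threshold (limma adjusted p = 0.275). Fancd2, the protein whose ubiquitin mark starts crosslink repair, had the second lowest difference of the 33, -0.54 (SE 0.27, limma adjusted p = 0.373), with ranges of 6.60 to 8.11 and 5.87 to 7.71. It exceeded the 40th percentile on 5 of 6 control and 9 of 11 urethane arrays. Its other kept probe sets gave -1.02 and 0.05 (limma adjusted p = 0.333 and 0.978 over probe sets), so the value depended on the probe set read. Brca1 differed by -0.10 (SE 0.18).

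Among the checkpoint kinases Atr came nearest to the threshold. Atr, the kinase of stalled replication, ran from 8.60 to 9.43 (median 9.26) in controls and from 8.51 to 9.07 (median 8.87) after urethane, and each of the 11 urethane values was under the mean of the controls. The difference was -0.33 (SE 0.13, unadjusted p = 0.0185, limma adjusted p = 0.205). Control 36, at 8.60, was the single low control, the others being at 9.12 or above. Without control 36 Atr was lower by -0.45 and passed (limma adjusted p = 0.0329, against 4.73% of all genes called), and it was the 1 gene added to Xpc. With control 36 left out and scan day as a block it was at -0.44 (limma adjusted p = 0.0178, against 8.95%). Control 36 stands out by the Atr values themselves, so leaving it out had to widen the difference. These calls are therefore no separate support. The other 2 probe sets of Atr gave -0.43 and -0.19. Chek1, the kinase that Atr activates, differed by -0.37 (SE 0.21) on a probe set whose name also ends in _s_at, and by -0.50 (SE 0.28) on its other kept one. Neither passed, nor did Atm, the kinase of broken ends, at -0.21 (SE 0.12), or Chek2, its target, at 0.02 (SE 0.19), with urethane 36 highest for Chek2 at 9.74.

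**Figure D2:**
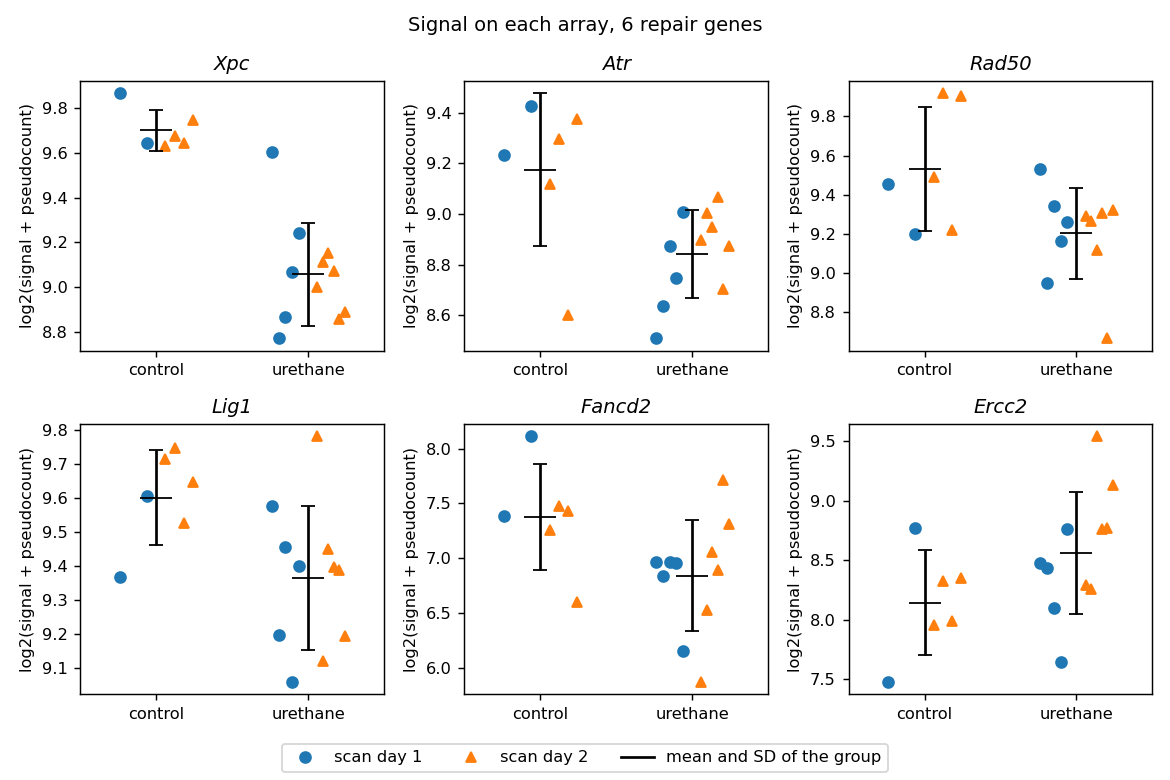
Log2(signal + pseudocount) on each array for Xpc, Atr, Rad50, Lig1, Fancd2 and Ercc2; circles are scan day 1, triangles scan day 2, and the bar is the mean and SD of 6 control and 11 urethane arrays. For Xpc the urethane arrays lie at 8.77 to 9.60 and the controls at 9.63 to 9.87, and the groups overlap in the other 5 panels.

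Of the 33 genes, 7 had at least 10 of 11 urethane arrays below the control mean (Xpc, Atr, Rad50, Lig1, Fancd2, Atm and Chek1), against 8.30% of all genes. None had at least 10 above it, against 9.87% of all genes. The within-group SD of the 33 had a median of 0.29, from 0.18 for Ddb1 to 0.62 for Mgmt, and the median over all genes was 0.36. The array by array median of the 33 deviations from the control mean ran from -0.08 to 0.10 in controls and from -0.22 on urethane 32 to 0.08 on urethane 3.

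**Figure D3:**
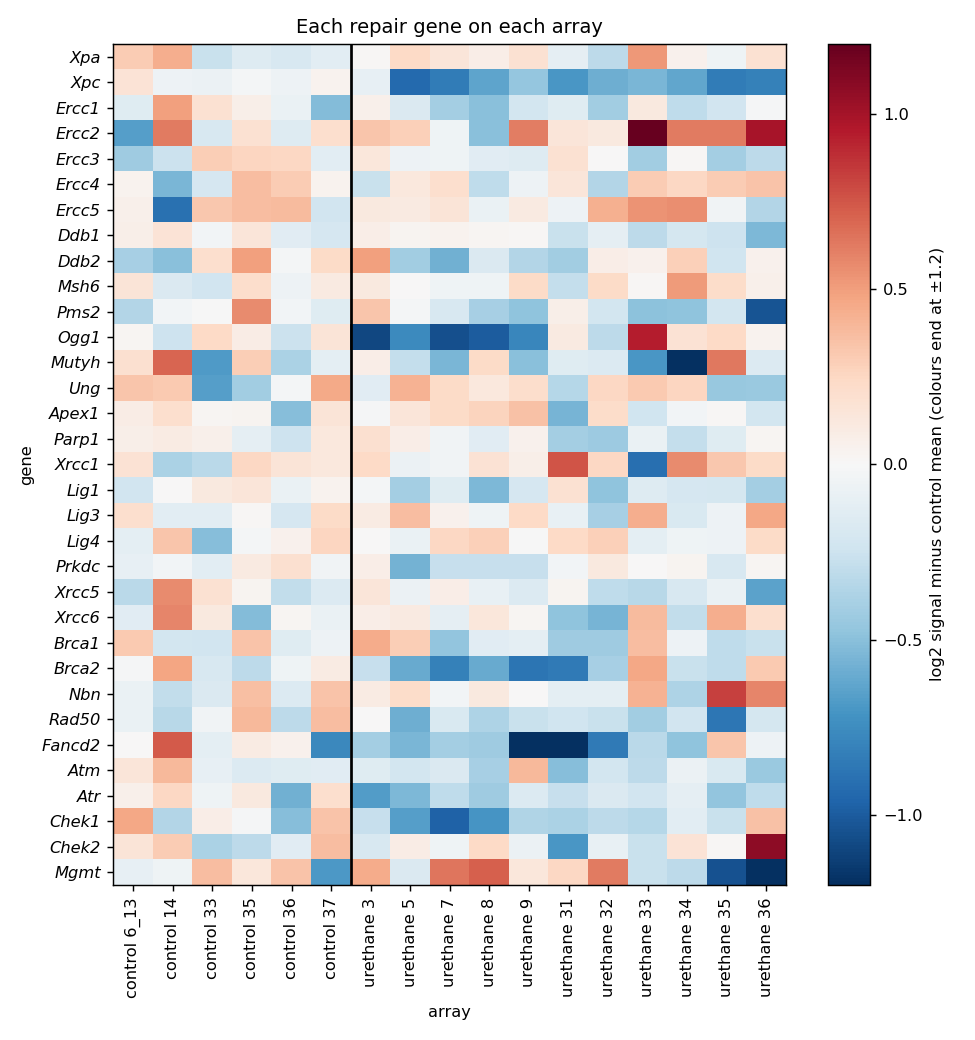
Each of the 33 genes (rows) on each of the 17 arrays (columns, controls left of the line), as log2 signal minus the control mean of the gene; blue is lower and red higher, and colours end at ±1.2. Xpc is blue on every urethane array, palest on urethane 3, and the Ogg1 row is bluest on urethane 3, 5, 7, 8 and 9 and reddest on urethane 33.

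Group differences were compared between the scan days, since the 20th percentile signal differed between urethane and control by -0.846 in log2 among day 1 arrays and by 0.402 among day 2 arrays. The sign differed between the days for 12 of the 33 genes (36.4%), against 51.2% of all genes. The change between days passed for 0 of 33 (lowest limma adjusted p = 0.194, for Ercc3), against 0.0822% of all genes, and 3 had an unadjusted p under 0.05 (Ercc3, Ogg1 and Brca2), against 17.4%. Ercc3 was at 0.29 on scan day 1 and -0.33 on scan day 2. The median of the 33 was -0.08 on each day.

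**Figure D4:**
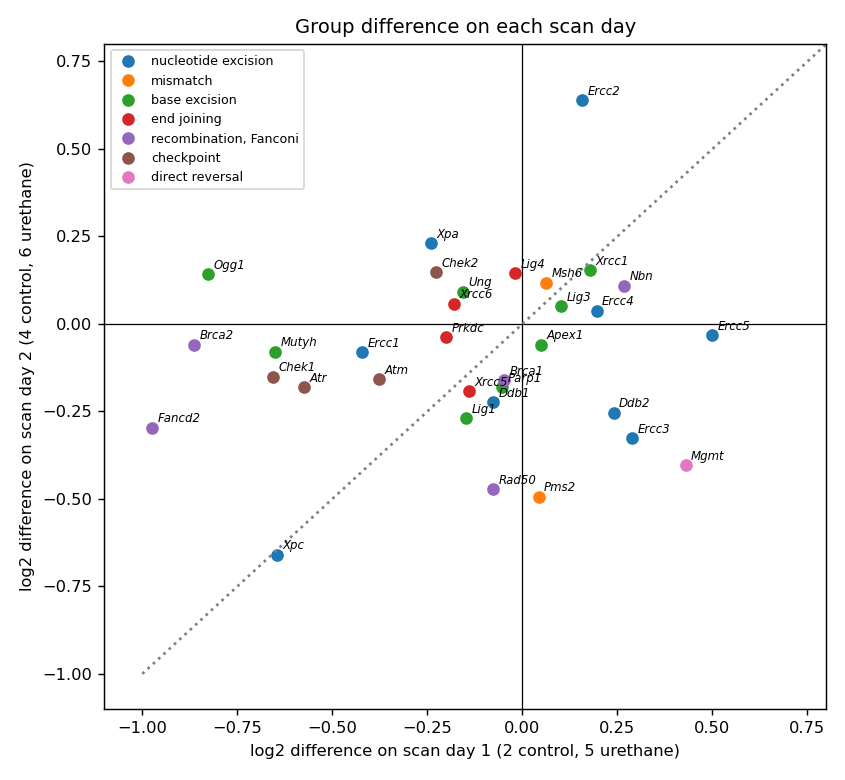
Log2 difference of each repair gene on scan day 1 (x axis, 2 control and 5 urethane arrays) against scan day 2 (y axis, 4 control and 6 urethane arrays), coloured by pathway, with the line of equality dotted. Xpc lies by that line at -0.65 and -0.66, Fancd2, Brca2 and Ogg1 lie far to the left, and Ercc2 is at the top.

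Over the probe sets the count of calls was like that over the genes, but probe sets of the same gene could differ in sign or size. This was so for Ercc1, Ogg1 and Fancd2 above. Parp1 gave 0.03, 0.13 and 0.31 on its other probe sets, against -0.11 on that of highest mean. Of 71 probe sets 60 were kept, 37 of these had a difference below 0, and 1, that of Xpc, passed (limma adjusted p = 0.006, against 1.58% of all probe sets called in either direction and 0.606% called lower). The 11 that were not kept belonged to 8 genes and exceeded the 40th percentile on 1 to 4 arrays. With scan day as a block 2 passed, those of Xpc and Ercc1 given above.

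Promoter windows were searched because some repair genes are known to follow the E2F factors that switch on genes of DNA replication. RefSeq windows of GRCm38.p6, from 250 bases before to 50 after a start, were found for 26 of the 33 genes. Xpc, Ercc3, Ddb2, Prkdc, Nbn, Rad50 and Fancd2 had no window and were not searched. The E2F motif searched was TTTCCCGC, TTTCGCGC, TTTGCCGC or TTTGGCGC on either strand. It was in a window of 5 of the 26 genes (19.2%), of 8 of 28 genes of the cell cycle list (28.6%) and of 2.60% of all genes with a window. The match is in capitals in the stretches below, given with up to 20 bases to each side.
Brca2, chr5:150522433-150522480, + strand: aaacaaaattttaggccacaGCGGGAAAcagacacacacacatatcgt
Lig1, chr7:13278832-13278875, + strand: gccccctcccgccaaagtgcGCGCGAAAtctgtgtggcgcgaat
Chek2, chr5:110839811-110839858, + strand: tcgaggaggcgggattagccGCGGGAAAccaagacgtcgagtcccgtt
Xrcc6, chr15:82016303-82016350, + strand: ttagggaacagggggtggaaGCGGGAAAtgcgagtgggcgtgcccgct
Msh6, chr17:87975045-87975092, + strand: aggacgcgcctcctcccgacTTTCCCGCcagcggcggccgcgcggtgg
In Msh6 the motif reads on the printed strand and in the other 4 on the opposite one. The differences of these 5 genes were -0.38 for Brca2, -0.24 for Lig1, 0.02 for Chek2, -0.01 for Xrcc6 and 0.09 for Msh6, and none passed. A match describes letters in the window and is not a bound site. The cell cycle homology motif TTTGAA was in a window of 1 of the 26 genes (Ercc5), against 20.2% of all genes and 39.3% of the cell cycle list.

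Genes that act beside the 33 were taken from lists of 117 further repair names, of which 100 were tested. Of these 100, 1 rose and 0 fell, beside 3.14% of all genes called. Their median was -0.03 and 60 were below 0, which became 0.02 and 46 with median centring. At an unadjusted p under 0.05 limma gave 8 lower and 1 higher, against 6.95% of all genes lower and 7.71% higher. Rfc2, a subunit of the clamp loader that places the sliding clamp for repair synthesis and replication, rose from 9.94 ± 0.22 (SD, n = 6) to 10.42 ± 0.13 (SD, n = 11), a difference of 0.48 (SE 0.10, limma adjusted p = 0.0064). The groups did not overlap, with controls up to 10.19 and urethane arrays from 10.20. Scan day 1 gave 0.28 and scan day 2 gave 0.59. The call was lost with the median centring (0.53, limma adjusted p = 0.0597), with the mean of its kept probe sets (0.32, limma adjusted p = 0.36), with the most variable probe set, and on scan day 1 alone.

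Its partner Rfc4 differed by -0.44 (SE 0.14, limma adjusted p = 0.108) and was lower with scan day as a block (-0.48, limma adjusted p = 0.0206), as were Pole, a replicative polymerase subunit, and Tdp1, which frees trapped topoisomerase ends. These were the 3 genes of the 100 called lower in the block fit, and 1 was called higher. Over all genes that fit called 3.44% lower and 4.31% higher. The other genes of smallest p were Neil3, a glycosylase found mainly in dividing cells, at -0.61 (SE 0.21), Pold1, the catalytic subunit of a replicative polymerase, at -0.42 (SE 0.15), Mbd4, a glycosylase of mispaired thymine, at -0.53 (SE 0.21), and Uvssa, a factor of transcription-coupled repair, at -0.35 (SE 0.15), none of which passed (limma adjusted p from 0.127 to 0.26). Among enzymes known to act on etheno adducts, Mpg and Alkbh2 did not pass. Mpg, the glycosylase that removes ethenoadenine, lay between 10.28 and 10.66 in controls and between 10.19 and 10.81 after urethane, a difference of -0.02 (SE 0.11). Alkbh2, a direct reversal dioxygenase, differed by 0.13 (SE 0.33), with controls from 5.37 to 8.46 (median 8.24). It exceeded the 40th percentile on 5 of 6 control arrays. Its difference was 1.28 among day 1 arrays, which hold only 2 controls, and -0.40 among day 2 arrays. The interaction had an unadjusted limma p of 0.0021 (limma adjusted p = 0.123), and 17.4% of all genes had one under 0.05.

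Cell cycle genes were set beside the repair genes, since replication and repair share many factors. Of 34 tested, 1 fell and 0 rose, all 34 differences were below 0 (33 with quantile normalization or median centring) and the median was -0.37, against -0.11 for the 33 repair genes and -0.03 for all genes. Mcm2, a subunit of the replicative helicase, lay between 9.34 and 10.20 in controls and was at most 9.58 after urethane, and it fell by 0.65 (SE 0.17, limma adjusted p = 0.0418), and Plk1, Tk1 and Ccna2, which did not pass, stood at -0.67, -0.50 and -0.49. With scan day as a block 15 of the 34 were lower, against 3.44% of all genes, while of the 33 repair genes 1 was. Mcm2 lost its call under 17 of 35 other settings. Among them were median centring (limma adjusted p = 0.289) and a fit with covariates of RNA quality (limma adjusted p = 0.106). The 17 also include leaving out control 6_13, 14, 35 or 37 or any 1 of urethane 31 to 36 (limma adjusted p from 0.0532 to 0.133).

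**Figure D5:**
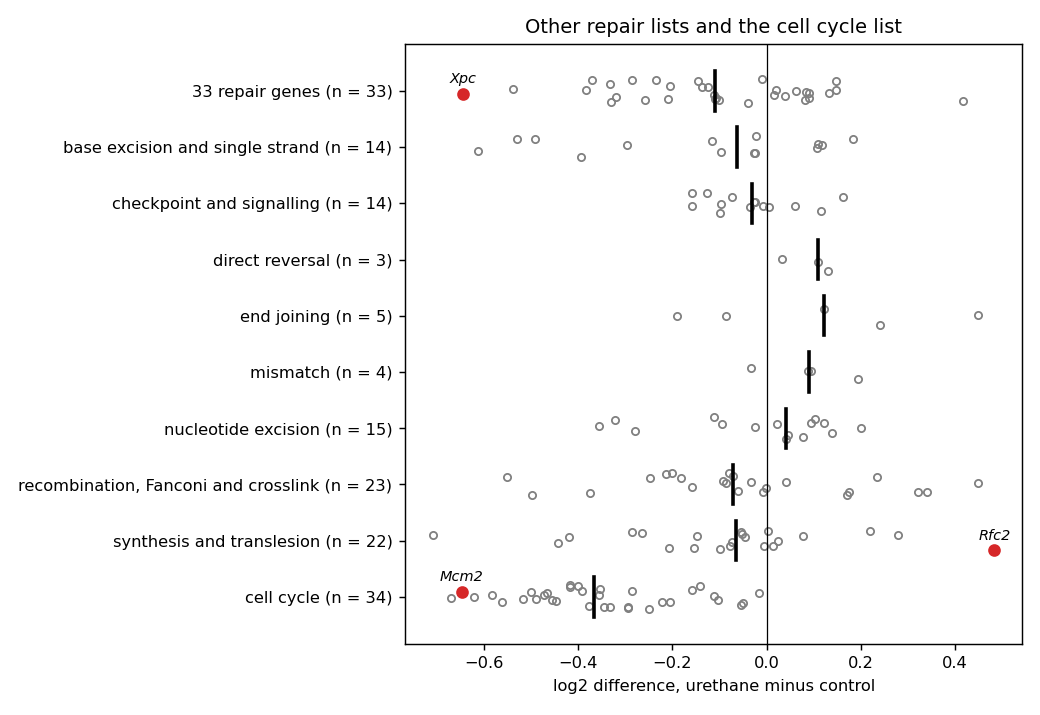
Log2 difference of each tested gene (x axis, urethane minus control) in the 33 repair genes, in 8 lists of other repair genes and in the cell cycle list (rows, n genes each); red points passed the adjusted threshold and black bars are medians. Xpc and Mcm2 are the red points to the left, Rfc2 the one to the right, and the cell cycle median lies at -0.37.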

How the data were processed

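RNA of lavage cells was hybridised to Affymetrix Mouse430_2 arrays, 1 per sample. The values are intensity signals deposited by the authors, made with MAS5 per the submitters' processing notes; its version is not given in the sources used here. The scan files per array gave the scan day. From these, log2(signal + 17.1) was computed, 17.1 being the middle value among the arrays' 20th percentile signals. Probe sets with 1 annotated gene were used (34945; 932 had several and 9160 none), 64 control probe sets were left out, and 29546 passed the filter. A gene took its kept probe set of highest mean. limma 3.58.1 (R 4.3.3; lmFit, eBayes with a trend) was run over all genes, after a check on simulated data. Symbols came from the platform annotation, and all 33 matched RefSeq. No column was left unused. Precision is limited by how many arrays there are.

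The members and lists were chosen with earlier results of these data known. All 33 genes are described. Of other repair genes those past the threshold, or if under 6 the 6 of smallest p, were named, with Mpg and Alkbh2; of the cell cycle list up to 4. Pole, Tdp1 and the markers beyond the first 3 of each list were named after their values were seen. Alternatives changed scaling, pseudocount, filter, probe set rule, variance model, scan day and arrays. A further one added covariates of RNA quality, from the Gapdh and Actb control probe sets.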

Additional observations from a re-analysis of the deposited data

Results flagged for a closer look

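Among the 33 repair genes, the 6 control arrays were examined for a single array far from the rest, and 2 genes had one. Chance gives such an array in about 1 in 20 groups, so 2 among 33 is near what chance gives. Both fall on the same array, control 36. For Atr control 36 was at 8.60 in log2 signal, with the nearest other control at 9.12, a gap of 0.627 of the range of the controls. For Apex1 control 36 was at 10.61, with the nearest other control at 11.14, a gap of 0.745 of the range.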

How the results depend on the processing

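Up to 35 alternatives were run: 33 gave a value for the count of probe sets and 30 for the change between scan days (0 called in each), and of the 33 genes Mutyh and Mgmt had 34 and Fancd2 33. No called value changed sign. Xpc kept its call in 33, with differences from -0.70 to -0.59, and 25 of the 33 genes were called in none. Genes lower numbered 0 with median scaling, 2 with the mean of kept probe sets and 2 with scan day as a block and control 36 left out, and 1 to 2 when any 1 array was left out (2 without control 36). Calls over all genes, 421, became 248 with median scaling, 205 with the probe set of largest variance, 250 without a variance trend, 974 on scan day 1 alone, 636 on scan day 2 alone, 1038 with the scan day block and 1199 with the block and control 36 left out, and 218 to 634 when 1 array was left out (220 without control 33, 218 without control 35, 634 without control 36). Probe sets of the 33 genes called, 1, became 0 with median scaling, 2 with the block, 3 with the block and control 36 left out, and 2 without urethane 33, 35 and 36, an alternative chosen after seeing the data; it was 1 whenever 1 array was left out. Shares over all probe sets were taken only for the fit of all arrays and for the scan day block. The median of the 33 ran from -0.14 to -0.08 when 1 array was left out.

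Numbers 33, 35 and 36 occur in both groups. Within scan day 2, deviations of same-numbered arrays from their group means correlated at -0.0067, -0.158 and -0.171. These values were not set beside those of differently numbered arrays, so they cannot tell what a shared number means. The replicate block over these 6 arrays called 3145 of all 13390 genes. Its urethane arrays are those with the highest 20th percentile signal. That signal was 66.2, 35 and 41.8 on urethane 33, 35 and 36, and 20.8, 17.5 and 17.1 on controls 33, 35 and 36. The part of this difference in the calls of the replicate block was not tested. Of the 33 repair genes the replicate block called 2 higher (Ercc2 and Nbn) and 3 lower (Xpc, Ercc3 and Ddb1). It also called 7 of their 60 kept probe sets. No share over all probe sets was taken for this fit, so that count says nothing particular to the repair genes. The median difference of the 33 genes was -0.029. Fancd2, Mutyh and Mgmt did not exceed the 40th percentile on every array.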
